A study of Arabidopsis thaliana with 12 samples.

Results

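The elongation zone of upb1-1 roots was compared with the elongation zone of Col-0 roots on 4 of the series' 12 ATH1 microarrays, chosen by genotype and zone from the sample titles. upb1-1 is a mutant of the bHLH gene UPBEAT1 (UPB1) in the Columbia-0 ecotype of Arabidopsis thaliana, and Col-0 is the unmutated ecotype. Both were grown on standard Murashige and Skoog medium with sucrose, and roots 6 days after germination were cut under a microscope with a razor blade. Each array carried RNA of about 60 pooled roots, amplified through 2 cycles, and each genotype and zone had 2 arrays labelled as biological replicates. The other 8 arrays held the meristematic zone of upb1-1 and Col-0 and both zones of the 35S::UPB1-3YFP #2 line, in which the viral 35S promoter drives a UPB1 fusion in the upb1-1 background (called OX here). Of 22746 probe sets that are not array controls, 15834 passed a filter on low signal, and 8906 of these were paired with 1 gene.

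UPB1 is expressed where root cells stop dividing and begin to elongate, and is known to repress a set of peroxidase genes there. Class III peroxidases are secreted haem enzymes that use or produce reactive oxygen species in the cell wall, and the balance of superoxide and hydrogen peroxide along the root is linked to the position at which cells leave the meristem. Elongation itself requires wall loosening by expansins and xyloglucan-modifying enzymes, while dividing cells are rich in ribosomes and histones.

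UPB1 signal checked the genotype labels of upb1-1 and Col-0, though not the zone labels. In linear MAS5 units, upb1-1 elongation sections read 11.9 and 15.6, against 1379 and 1233 in those of Col-0. The difference was -5.47 ± 0.26 (log2, SE), with an adjusted p of 3.00e-08 in limma, the linear model used for all adjusted p-values here. OX elongation arrays read 53.6 and 35.3, below both Col-0 arrays although this line carries the transgene, and whether the probe set lies within the transgene's transcript was not tested. Differences are upb1-1 minus Col-0 on log2(signal + 16), a scale that understates the change of dim probe sets, and a call means an adjusted p below 0.05. Precision is limited by having 2 arrays in a group, and the spread was pooled over all 6 groups. The SD between replicates (log2, over tested probe sets) was 0.36 in upb1-1 and 0.296 in Col-0 elongation zones. It was 0.196 and 0.218 in their meristematic zones, so the pooled spread includes groups tighter than the 2 compared.

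The sample titles give a zone and no cell type, and cell types could be checked only in part. Of 15 root hair genes listed, 3 were matched to a probe set through the annotation, and their values follow in the account of wall genes. The endodermal receptor gene GSO1 read 342 and 475 in upb1-1, against 185 and 190 in Col-0, the stem cell gene BBM stayed at 17.5 or below on all 4 arrays, and the photosynthesis gene LHCB4.1 at 60.4 or below. No gene listed for non-hair epidermis, root cap, stele, xylem, phloem or suberin was matched, and 8730 probe sets had no listed gene. The log2 ratio of 3′ to 5′ signal of 3 control transcripts was 4.12 and 3.96 on the upb1-1 arrays and 3.87 and 3.99 on the Col-0 arrays, but lay between 1.98 and 2.27 on the meristematic arrays of both genotypes. The 2 upb1-1 arrays correlated less well with each other (r = 0.966 over probe sets) than the 2 Col-0 arrays (r = 0.978). These are whole slices of root, in which fewer cells of a type and less RNA per cell cannot be told apart.

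In the elongation zone 2979 probe sets, 18.8% of those tested, differed between upb1-1 and Col-0. Of these 1482 were higher in upb1-1 (9.36%) and 1497 lower (9.45%), and the median over all tested probe sets was -0.02. The rises reached further: 114 were higher by at least 2 log2 units, against 28 lower by that much. The median rise was 1.03 and the median fall -0.87. In the meristematic zone, on 4 other arrays, the same genotypes differed at 6 probe sets (0.0379%), 2 higher (0.0126%) and 4 lower (0.0253%) in upb1-1, of which 1, UPB1, was called in both zones. There the elongation zone rises had a median difference of 0.05 and the falls one of -0.02. For the meristematic comparison the pooled spread includes groups wider than those compared, and the meristematic arrays were not fitted alone. Without adjustment 5285 probe sets had p below 0.05 in the elongation zone. The calls also depended on the arrays that gave the spread. Fitted to the 6 elongation arrays alone they numbered 1263, and to the 4 compared arrays alone 757.

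The distance between the genotypes depended on the arrays set against each other. For most calls replicate 2 differed from replicate 1 in the same direction in each genotype. Replicate 2 of upb1-1 lay further from Col-0 than replicate 1 for 1319 of the 1482 rises and 1324 of the 1497 falls. Replicate 2 was the higher upb1-1 array for 46.0% of all tested probe sets. In Col-0, replicate 1 lay below replicate 2 for 1142 of the rises and above it for 1278 of the falls. Replicate 2 was the higher Col-0 array for 47.4% of all tested probe sets. The number of calls was 4745 without upb1-1 replicate 1, 722 without upb1-1 replicate 2, 531 without Col-0 replicate 1 and 2891 without Col-0 replicate 2. All 2979 differences kept their sign in each of these fits. That is no separate support, since the arrays of the 2 genotypes did not overlap for 1481 of the rises and 1488 of the falls. Leaving out an array cannot change the sign of those. Arrays of the 2 genotypes did not overlap at 8884 probe sets, 56.1% of those tested.

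**Figure D1:**
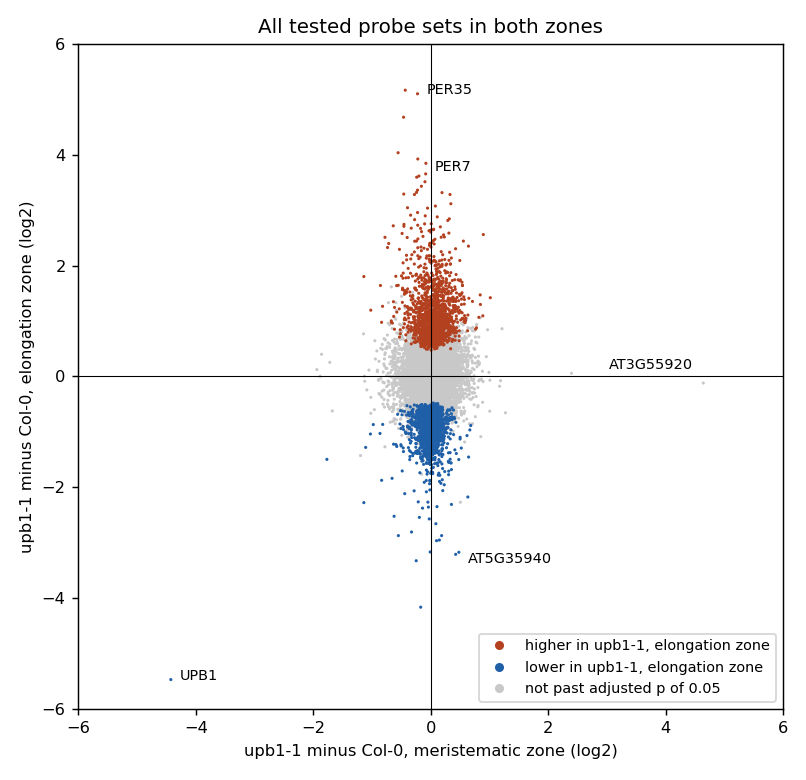
Difference between upb1-1 and Col-0 (log2) in the elongation zone (vertical axis) against the meristematic zone (horizontal axis), 1 point per tested probe set. The 1482 rises and 1497 falls of the elongation zone spread along the vertical axis, while UPB1 lies far below 0 in both zones and AT3G55920 moved in the meristematic zone alone.

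Genes known from growing root hairs were among the strongest rises. EXPA18, an alpha-expansin of root hair cells that loosens the wall, read 682 and 1240 in upb1-1, against 36.9 and 94.4 in Col-0. EXPA7, a second root hair expansin, read 1059 and 2031 in upb1-1, against 169 and 289 in Col-0. GH9C1, a secreted glycosyl hydrolase family 9 endoglucanase, read 784 and 1900 in upb1-1, against 70.4 and 106 in Col-0. In all 3 the groups were far apart, with upb1-1 replicate 2 highest and Col-0 replicate 1 lowest. They rose by 3.62 ± 0.32, 2.64 ± 0.34 and 3.60 ± 0.32 log2 units, in the order given (limma adjusted p of 1.22e-05, 0.000309 and 1.16e-05), and each call held with any 1 array left out. In the meristematic zone the same 3 genes differed by -0.20, -0.0005 and -0.24 log2, in the same order, and none was called. All 3 read higher in the meristematic than in the elongation sections of Col-0. There EXPA18 read 373 and 327, EXPA7 527 and 461.5, and GH9C1 354 and 375 in the meristematic sections.

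Of 14 tested expansins 3 rose (21.4%, against 9.36% rising over all tested probe sets) and none fell, with a median difference of 0.39. Beside EXPA7 and EXPA18 the third was EXLA1, an expansin-like gene, at 172 and 161 in upb1-1 against 86.6 and 63.5 in Col-0. It rose by 1.01 ± 0.22 log2 units (limma adjusted p = 0.00713). EXLA2 read 157 and 186 in upb1-1 against 72.2 and 108 in Col-0, a difference of 0.84 that did not pass (adjusted p = 0.0529).

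Xyloglucan endotransglucosylase/hydrolases cut and rejoin the xyloglucan that ties cellulose microfibrils together. Of 6 tested, 5 rose (83.3%, against 9.36% over all tested probe sets) and none fell, with a median of 0.89. XTH18 read 890 and 1319 in upb1-1 against 337 and 403 in Col-0, and rose by 1.51 ± 0.25 log2 units (limma adjusted p = 0.00163). XTH33, a member held at the membrane, read 103 and 173 in upb1-1 against 57.6 and 44.4 in Col-0. XTH33 rose by 1.17 ± 0.29 and XTH19 by 0.81 ± 0.19 log2 units, and XTH16 differed by -0.01. XTH18 alone kept its call with each array left out: 5 calls remained without upb1-1 replicate 1, 1 without upb1-1 replicate 2, 1 without Col-0 replicate 1 and 3 without Col-0 replicate 2.

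The trichome birefringence-like (TBL) family acetylates wall polysaccharides such as xylan. This list, and those below for glycosyl hydrolases, cellulose synthase-like genes, tetraspanins, RALF-like peptides, glycosyltransferases, carboxypeptidases, ribosomal proteins, histone H2B, mitosis, organelle transcripts and heat shock, were drawn up after values were seen, and the members named from them were chosen by their values. Of 20 members tested 9 rose (45.0%, against 9.36% over all tested probe sets), 1 fell, and the median was 0.55. TBL41 read 440 and 737 in upb1-1, against 115 and 119 in Col-0, and rose by 2.14 ± 0.23 log2 units (limma adjusted p = 7.30e-05). TBL38 read 1263 and 2399 in upb1-1, against 335 and 456 in Col-0, and rose by 2.11 ± 0.32. TBL30 read 358 and 402 in upb1-1, against 96.2 and 175 in Col-0, and rose by 1.43 ± 0.25. TBL36 went the other way, at 112 and 98.5 in upb1-1 against 284 and 222 in Col-0, a fall of 1.14 log2 units (-1.14 ± 0.21). The number of rises was 4 without upb1-1 replicate 2 and 3 without Col-0 replicate 1, and 9 without either of the other arrays. In the meristematic zone the family's median was 0.10.

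Other families of the wall and cell surface held fewer calls. Over all tested probe sets 9.36% rose and 9.45% fell, and with so few members these counts give no result for a family. Of 10 glycosyl hydrolase family 9 members 3 rose, GH9B17 among them, at 95.3 and 117 in upb1-1 against 22.9 and 4.94 in Col-0. Of 7 cellulose synthase-like genes 2 rose. CSLD2, of a subfamily needed for root hair tip growth, read 1729 and 2403 in upb1-1 and 1098 and 1368 in Col-0. Its rise of 0.73 log2 units was not called without upb1-1 replicate 2 (adjusted p = 0.15) or without Col-0 replicate 1 (adjusted p = 0.16). The tetraspanin TET12, of a family of membrane scaffold proteins, read 74.6 and 177 in upb1-1 against 8.57 and 7.06 in Col-0, and rose by 2.47 ± 0.35. It was 1 of 2 rises among 8 tetraspanins. Of 7 RALF-like peptide genes, whose products signal at the cell surface, 2 rose and 2 fell.

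Class III peroxidases differed mostly upward, by a small median. Of 73 listed genes 55 were matched to a probe set through the annotation and 33 were tested. Of these 12 rose (36.4%, against 9.36% of all tested probe sets) and 1 fell (3.03%, against 9.45%), while 20 were not called. The median was 0.28, and 24 of the 33 differences lay above 0, in a range of -0.77 to 5.10. PER35 had the largest rise of the family, with 548 and 903 in upb1-1 against 2.08 and 8.36 in Col-0 (5.10 ± 0.27 log2 units, limma adjusted p = 5.12e-08). PER72, an enzyme studied in lignin formation, read 549 and 184 in upb1-1 against 64.8 and 38.8 in Col-0, and rose by 2.34 ± 0.41. PER66 read 229 and 307 in upb1-1 against 84.6 and 77.2 in Col-0, and rose by 1.54 ± 0.24. PER42, the single fall, was a bright gene at 5343 and 3469 in upb1-1 against 6677 and 7139 in Col-0, a fall of 0.68 log2 units. Its call was lost without upb1-1 replicate 2 (-0.37, adjusted p = 0.20), without Col-0 replicate 1 (-0.73, adjusted p = 0.098) and without Col-0 replicate 2 (-0.63, adjusted p = 0.073).

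Several of the brightest members were not called. PER45 read 9838 and 9475 in upb1-1 and 9797 and 11640 in Col-0, PER16 read 7353 and 6834 in upb1-1 and 6710 and 8874 in Col-0. They differed by -0.15 and -0.12. Signals summed over the 55 probe sets were 60410 and 65120 in upb1-1 and 43660 and 56510 in Col-0. Of 3 peroxidases known as UPB1 targets, PER57 rose by 0.97 log2 units and PER39 by 0.73, and PER40, at 0.41, was not called (adjusted p = 0.32). PER57 lost its call without upb1-1 replicate 2 (adjusted p = 0.067) or Col-0 replicate 1 (adjusted p = 0.11), and PER39 without either of those or without Col-0 replicate 2 (adjusted p of 0.27, 0.25 and 0.068). Over the family, rises numbered 12 without upb1-1 replicate 1, 8 without upb1-1 replicate 2, 5 without Col-0 replicate 1 and 12 without Col-0 replicate 2. In the meristematic zone none of the 33 was called and the median was -0.06. For 6 of the 33 the elongation zone difference exceeded the meristematic one in the test of the difference between zones, of which 1.48% of all tested probe sets were called in that direction.

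**Figure D2:**
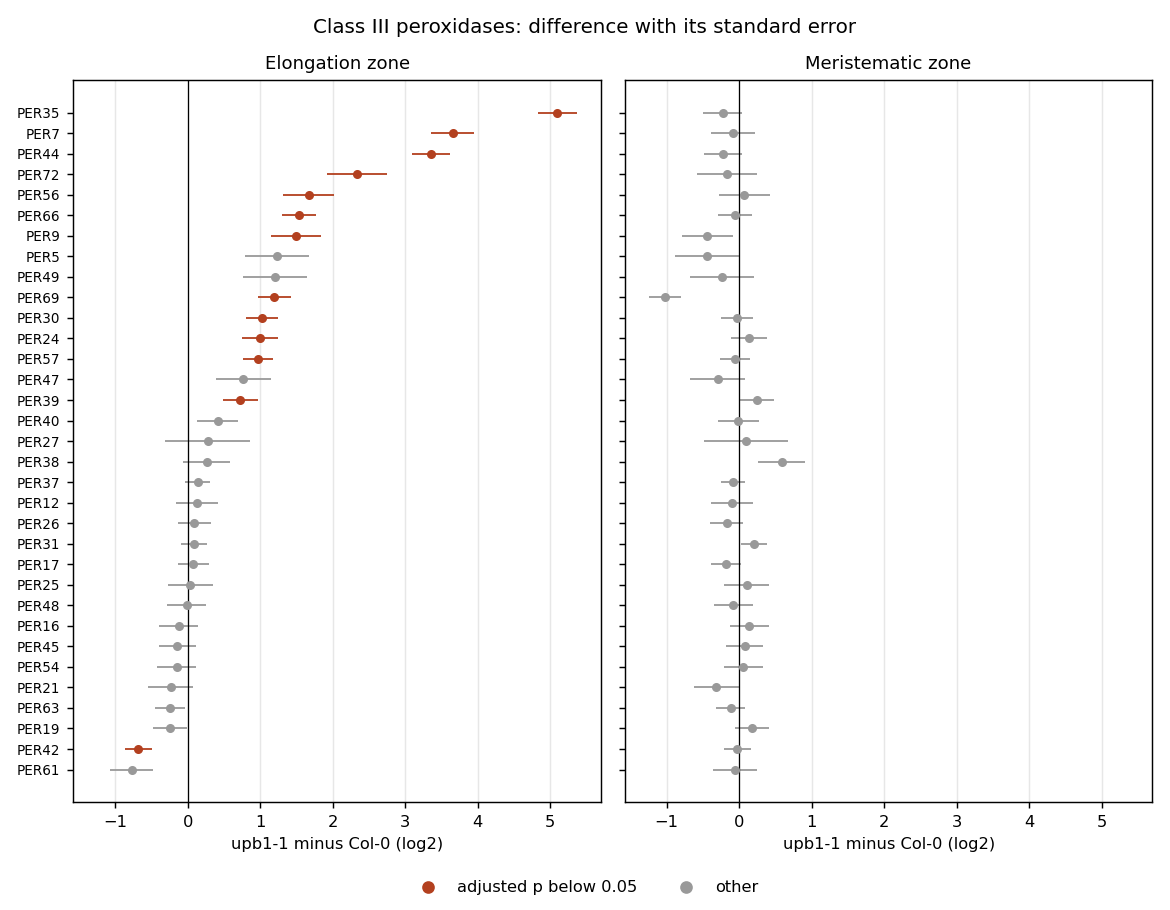
Difference between upb1-1 and Col-0 (log2) with its standard error for the 33 tested class III peroxidases, in the elongation zone (left) and the meristematic zone (right). PER35 stands at 5.10, the 12 rises and PER42 are coloured at left, and no gene is coloured at right.

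Genes of other redox enzymes were sparsely annotated. NADPH oxidases make apoplastic superoxide, and 3 of 10 listed were matched to a probe set. RBOHG read 84.1 and 164 in upb1-1 against 19.7 and 35.6 in Col-0, and rose by 1.64 ± 0.32 log2 units. RBOHE read 80.3 and 173 in upb1-1 against 43.9 and 39.96 in Col-0, and rose by 1.22 ± 0.31. RBOHI differed by 0.97 and was not called (adjusted p = 0.089). Without upb1-1 replicate 2 or without Col-0 replicate 1 neither was called, with adjusted p-values of 0.064 and 0.063 for RBOHG and 0.21 and 0.094 for RBOHE. RBOHE was also not called without Col-0 replicate 2 (adjusted p = 0.055). The ascorbate peroxidases SAPX and TAPX, which remove hydrogen peroxide, differed by -0.06 and -0.23 and were not called.

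Conjugating enzymes moved one by one. GSTU28, a tau-class glutathione S-transferase, read 748 and 2024 in upb1-1 against 216 and 259 in Col-0, and rose by 2.30 ± 0.35 log2 units (limma adjusted p = 0.000928). GSTU25 fell by 0.61, at 696 and 576 in upb1-1 against 975 and 978 in Col-0. That fall was not called without upb1-1 replicate 2 (adjusted p = 0.12) or Col-0 replicate 1 (adjusted p = 0.098). Of 37 UDP-glycosyltransferases, which attach sugars to hormones and phenolics, 7 rose (18.9%) and 2 fell. Over all tested probe sets 9.36% rose and 9.45% fell. UGT72E3, which glucosylates lignin precursors, read 132 and 239 in upb1-1 against 28.1 and 37.8 in Col-0, and rose by 2.00 ± 0.30. Of 20 serine carboxypeptidase-like genes 4 rose, with scpl48 at 465 and 616 in upb1-1 against 157 and 178 in Col-0. Of 2 tested genes listed for low oxygen, LDH1 differed by 0.14 and was not called (limma adjusted p = 0.72). PDC2, a pyruvate decarboxylase induced under low oxygen, read 160 and 199 in upb1-1 and 33.1 and 44.3 in Col-0, a rise of 1.84 that was not called without upb1-1 replicate 2 (adjusted p = 0.10) or Col-0 replicate 1 (adjusted p = 0.12).

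Of the 12 largest rises, 6 belonged to loci known here by number only. AT5G04960 read 480 and 728 in upb1-1, against 25.4 and 27.1 in Col-0 (3.85 ± 0.31 log2 units). AT3G12540 read 159 and 260 in upb1-1, against 3.65 and 9.88 in Col-0 (3.28 ± 0.27). AT1G19900 read 1224 and 2150 in upb1-1, against 168 and 247 in Col-0 (2.90 ± 0.26). For each of these the groups lay well apart, with upb1-1 replicate 2 highest. AT4G02090 broke that order, at 281 and 182 in upb1-1 against 25.3 and 11.6 in Col-0 (2.84 ± 0.28). MT1C, a metallothionein that binds metal ions, was the least steady of the 12, at 1311 and 117 in upb1-1 against 88.2 and 17.55 in Col-0. Its rise of 2.83 ± 0.73 was not called without upb1-1 replicate 1 (1.17, adjusted p = 0.089) or without Col-0 replicate 2 (2.01, adjusted p = 0.12). The other 11 kept their calls with any 1 of the 4 arrays left out.

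Some of these genes read lower in Col-0 elongation sections than in the meristematic sections of upb1-1 and Col-0. PER7, a further class III peroxidase, read 3127 and 5553 in upb1-1 and 210 and 471 in Col-0 elongation zones, while the meristematic zone read 1089 and 1262 in upb1-1 and 1258 and 1235 in Col-0. Its elongation signal therefore lay above the whole meristematic range in upb1-1 and below it in Col-0. PER44 did the same, at 779 and 1004 in upb1-1 and 51.1 and 98.4 in Col-0 elongation zones, against meristematic values of 468 and 645 in upb1-1 and 666 and 627 in Col-0. This held for 246 of the 1482 rises (16.6%), and for 280 of all 15834 tested probe sets (1.77%); the choice of the rises by the elongation zone difference favours it. The reverse order, upb1-1 below and Col-0 above all 4 meristematic arrays, was met by 118 of the 1497 falls (7.88%) and by 142 of all tested probe sets (0.897%), with the same limit.

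**Figure D3:**
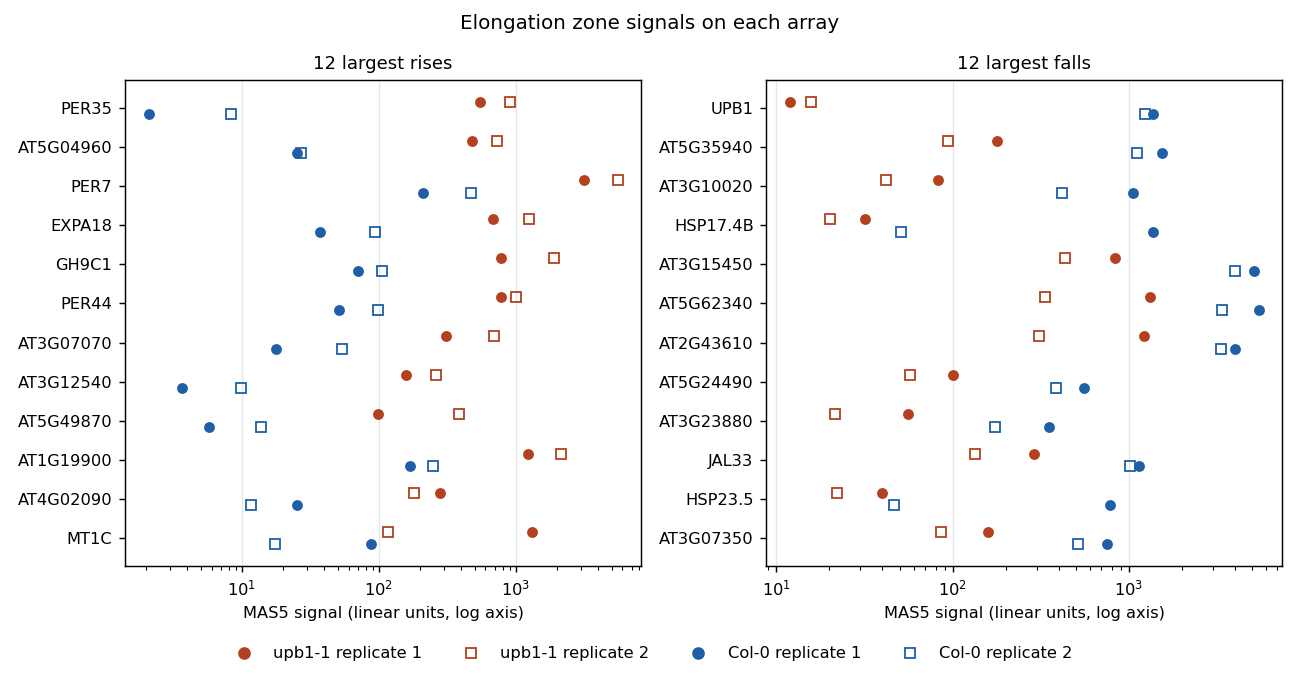
Linear MAS5 signal (log axis) on each upb1-1 and Col-0 elongation array for the 12 largest rises (left) and 12 largest falls (right) with a named gene. The groups do not overlap for any of them by the rule that chose them, and Col-0 replicate 1 stands apart from replicate 2 for HSP17.4B and HSP23.5.

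Among falls, UPB1 was followed by loci mostly known by number. AT5G35940 read 180 and 94.7 in upb1-1, against 1538 and 1122 in Col-0, a difference of -3.17 ± 0.28 log2 units (limma adjusted p = 1.28e-05). AT3G10020 read 82.7 and 41.9 in upb1-1, against 1055 and 417 in Col-0 (-3.17 ± 0.35). AT3G15450 read 836 and 437 in upb1-1, against 5123 and 4014 in Col-0 (-2.87 ± 0.41). JAL33, a jacalin-related lectin, read 291 and 134 in upb1-1, against 1146 and 1016 in Col-0 (-2.35 ± 0.26). In each, upb1-1 replicate 2 was the lowest array and Col-0 replicate 1 the highest. AT5G62340 and AT2G43610 differed most between the upb1-1 arrays. AT5G62340 read 1316 and 335 in upb1-1, against 5496 and 3376 in Col-0 (-2.66 ± 0.41). AT2G43610 read 1216 and 308 in upb1-1, against 4023 and 3351 in Col-0 (-2.55 ± 0.39). Apart from HSP17.4B and HSP23.5, described below with the other heat shock genes, all of the 12 kept their calls with any 1 of the 4 arrays left out.

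Genes of cytosolic ribosomal proteins were lower in upb1-1 as a body. Of 222 loci listed, 130 were matched to a probe set and 125 were tested. Of these 75 fell (60.0%, against 9.45% over all tested probe sets), none rose, and 50 were not called. The median was -0.83, and 119 of the 125 differences lay below 0. Both subunits took part, with 25 of 44 loci of the 40S subunit and 50 of 81 of the 60S subunit lower, at medians of -0.86 and -0.78. Falls touched 41 of the 58 ribosomal protein families tested. The names and families of ribosomal, small heat shock, peroxidase and NADPH oxidase loci come from lists written by locus after published Arabidopsis nomenclature, since the annotation tables used give most of them only as locus numbers. Paralogues in these families are similar in sequence, and a probe set may also read a copy of the gene it is named for.

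AT5G02610, listed as RPL35, had the largest fall, at 528 and 190 in upb1-1 against 1451 and 1025 in Col-0 (-1.88 ± 0.31 log2 units, limma adjusted p = 0.00160). AT3G04920, listed as RPS24, read 432 and 280 in upb1-1 against 1103 and 814 in Col-0 (-1.40 ± 0.21). AT4G02230, listed as RPL19, read 710 and 506 in upb1-1 against 1523 and 1249 in Col-0 (-1.18 ± 0.18). Each of these kept its call with any 1 array left out. AT3G09200, listed as RPP0, was among the brightest and was not called, at 12180 and 9170 in upb1-1 and 10850 and 12330 in Col-0. Groups did not overlap, with upb1-1 lower, at 92 of the 125, against 28.5% of all tested probe sets.

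Summed over the 130 probe sets, the ribosomal signal was 388500 and 236400 in upb1-1, against 509600 and 460500 in Col-0, so that upb1-1 replicate 2 was the lowest of the 4. OX elongation arrays summed to 349600 and 435000, below both Col-0 arrays and on either side of upb1-1 replicate 1. In the meristematic zone the sums were 698200 and 697800 in upb1-1 and 737100 and 704800 in Col-0, with a median difference of -0.03 over the list. The number of falls depended on single arrays: 107 without upb1-1 replicate 1, 13 without upb1-1 replicate 2, 7 without Col-0 replicate 1 and 73 without Col-0 replicate 2. The medians in these 4 fits were -1.21, -0.45, -0.66 and -0.97. The corresponding falls over all tested probe sets were 2624, 325, 169 and 1508, and no locus of the list rose in any of them.

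Some genes of dividing cells went the same way, with smaller numbers. Of 40 core histone loci listed 9 were matched to a probe set, all of them histone H2B genes, whose products package DNA. Of the 8 tested 6 fell (75.0%, against 9.45% over all tested probe sets), with a median of -0.82. HTB2 read 151 and 65.9 in upb1-1 against 268 and 188 in Col-0 (-1.04 ± 0.28). HTB11 read 857 and 589 in upb1-1 against 1373 and 1210 in Col-0 (-0.84 ± 0.19). Of 7 genes of mitosis and cytokinesis 3 fell, the Aurora kinases AUR1 and AUR2 and the checkpoint gene BUB3.1, at -0.83, -0.91 and -0.62. AUR1 read 142 and 87.6 in upb1-1 against 253 and 177 in Col-0. In the meristematic zone AUR1 read 364 and 377 in upb1-1 and 371 and 396 in Col-0. None of these histone or mitosis calls was left without upb1-1 replicate 2 or without Col-0 replicate 1; for HTB2 the differences were then -0.53 and -0.80 and for AUR1 -0.53 and -0.59. PRL, a replication licensing factor, differed by -0.20 and was not called. Further lists, also drawn up after values were seen, held DNA replication genes and kinesins. Of 4 DNA replication genes 1 fell, with a median of -0.21. Of 6 kinesins none was called, with a median of 0.01.

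Transcripts of the plastid genome were also tested. Of 68, 7 fell and none rose (10.3% against 9.45% falling over all tested), with a median of -0.31. The RNA polymerase subunit gene rpoC1 read 35.9 and 22.6 in upb1-1 against 107 and 71.7 in Col-0 (-1.22 ± 0.24). Without Col-0 replicate 1 no plastid transcript was called, and without upb1-1 replicate 2 there was 1. Of 12 mitochondrial transcripts none was called.

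**Figure D4:**
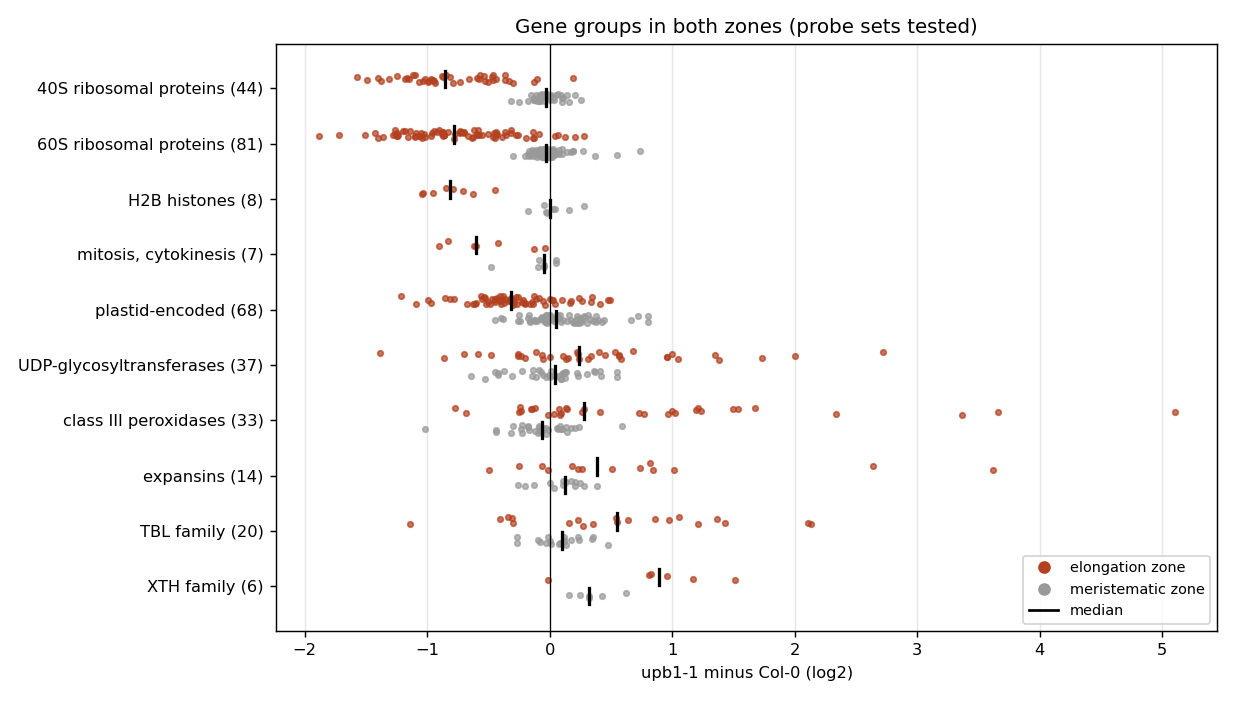
Difference between upb1-1 and Col-0 (log2) for each tested probe set of 10 gene groups in the elongation zone and the meristematic zone, with the median of each as a black bar and the number of probe sets in brackets. The ribosomal protein groups lie at medians of -0.86 and -0.78 in the elongation zone and -0.03 in the meristematic zone.

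Heat shock genes separated 1 array from the other 3. HSP17.4B, a small heat shock protein, averaged 26.0 ± 8.35 in upb1-1 (SD, n = 2), against 1367 and 51.2 in Col-0. HSP23.5, another small heat shock protein, read 39.6 and 22.0 in upb1-1, against 781 and 46.5 in Col-0. ROF2, a heat-inducible immunophilin, read 281 and 272 in upb1-1, against 2394 and 339 in Col-0. The high value was Col-0 replicate 1 each time, and Col-0 replicate 2 lay near upb1-1. Over the 8 genes tested 5 fell (62.5%, against 9.45% over all tested probe sets) and the median was -1.97. Without Col-0 replicate 1 the median was -0.32. HSP17.4B then differed by -0.69 (adjusted p = 0.20) and HSP23.5 by -0.44 (adjusted p = 0.47). Signals summed over the 9 probe sets were 675 and 620 in upb1-1, 6810 and 767 in Col-0, and 707 and 790 in OX elongation zones. Their part in the other falls was not tested; the median ribosomal difference was -0.66 without that array.

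**Figure D5:**
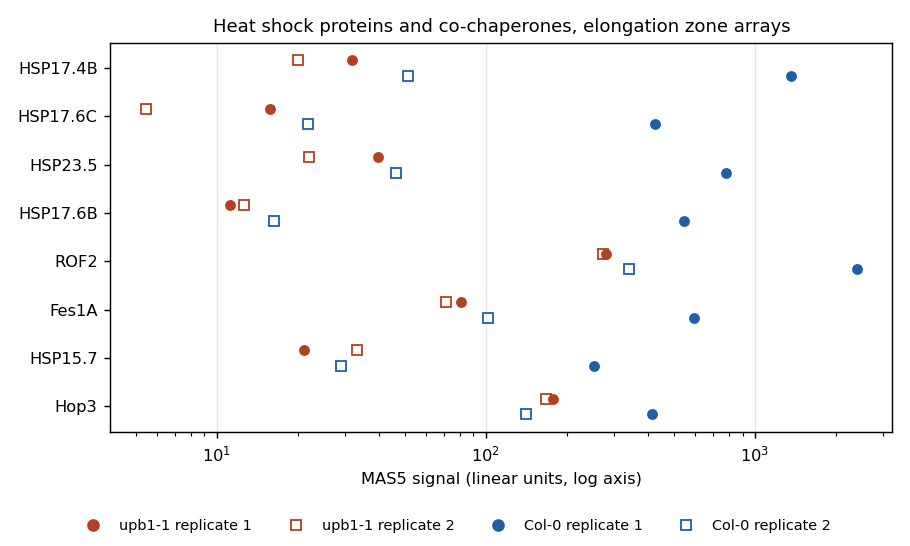
Linear MAS5 signal (log axis) of 8 heat shock genes on each upb1-1 and Col-0 elongation array. Col-0 replicate 1 lies to the right of the other 3 arrays for every gene, for example at 1367 against 51.2 or less for HSP17.4B.

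The difference between the 2 zones' responses was itself tested. It was called at 359 probe sets (2.27%), 235 with the elongation zone difference above the meristematic one (1.48%) and 124 with it below (0.783%). Of the 2979 elongation zone calls 353 were among them, 231 rises and 122 falls. For the rest a larger response in the elongation zone was not shown by this test. The largest such value for a rise was that of PER35, 5.33 ± 0.38 (limma adjusted p = 3.57e-06), and for a fall that of AT5G35940, -3.65 ± 0.40 (limma adjusted p = 0.00023), among the genes named here. AT3G55920 met the test from the other side: it read 856 and 759 in upb1-1 and 818 and 941 in Col-0 elongation zones, and 505 and 471 in upb1-1 against 5.69 and 2.86 in Col-0 meristematic zones. Zone and 3′ to 5′ signal ratio changed together on these arrays, and the part of that ratio in the difference between zones was not tested.

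OX elongation arrays give values beside these, though their comparison with Col-0 shares the same Col-0 arrays. PER7 read 3127 and 5553 in upb1-1, 40.3 and 44.4 in OX, and 210 and 471 in Col-0. EXPA18 read 3.91 and 4.78 in OX, and GH9C1 24.0 and 36.6, each below both Col-0 arrays as well as below upb1-1. AT5G35940 read 180 and 94.7 in upb1-1, 79.8 and 54.5 in OX, and 1538 and 1122 in Col-0, so that both lines lay below Col-0. The median signal of the 1482 rises was 344 in upb1-1, 146 in OX and 142 in Col-0 elongation zones, and that of the 1497 falls 192 in upb1-1, 282 in OX and 387 in Col-0.

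The 2 zones of OX were compared on 4 arrays that give no value to the difference between upb1-1 and Col-0, though all 12 share the estimate of spread. Of the rises 49.1% were higher in the OX elongation zone than in the OX meristematic zone and 10.1% lower, against 23.9% and 29.6% of all tested probe sets. Of the falls 15.4% were higher in the OX elongation zone and 44.0% lower. The log2 ratio of 3′ to 5′ control signal in OX was 3.87 and 4.08 in the elongation zone and 4.21 and 4.12 in the meristematic zone.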

How the data were processed

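Signals of 12 Affymetrix ATH1 arrays were deposited as linear MAS5 intensities, per the submitters' processing notes; the MAS5 version and settings are not given in the sources used here, and detection calls were not used. From the deposited intensity, log2(signal + 16) was taken without further scaling. Of 22810 probe sets, 64 controls were left out, and 15834 lay above the 40th percentile on at least 2 arrays. limma 3.58.1 in R 4.3.3 was fitted to all 12 arrays in 6 groups with a mean-dependent prior, and p-values were adjusted by Benjamini-Hochberg over all tested probe sets; the fit was tested on simulated data. Replicates are labelled biological. The p-values set each group difference against the spread between replicates, pooled over the 6 groups and drawn toward the mean-dependent prior. Genes were named from the platform annotation, updated through RefSeq: 13436 probe sets by gene ID, 77 by platform symbol, 503 matched several genes and 8730 were unlisted.

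The genes named are UPB1, the 12 largest called rises and falls that do not overlap and are brighter than the median, up to 4 members of each of 22 lists by smallest p, PER39, PER40, PER57 and 6 genes by the test between zones. Members of 28 further lists fall outside this rule. The comparison and all lists were chosen with earlier results of these data known. Alternatives were the offset, filter, normalization, arrays fitted, variance trend, a replicate block and each array left out.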

Additional observations from a re-analysis of the deposited data

Results flagged for a closer look

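The response to the mutation differed between the 2 zones at 24 of 61 named genes, by an interaction term in the limma fit. Of all tested probe sets 2.27% were called by this test. Many named genes were chosen by their elongation zone difference, and 6 by this test itself, which favours such calls. The interaction term is the upb1-1 minus Col-0 difference in the elongation zone minus that in the meristematic zone (log2). Among the largest rises it was 5.33 for PER35, 3.93 for AT5G04960, 3.84 for GH9C1, 3.82 for EXPA18, 3.74 for PER7, 3.59 for PER44, 3.56 for AT3G12540, 3.13 for AT3G07070, 2.9972 for AT5G49870, 2.99 for AT1G19900 and 2.53 for AT4G02090. Among smaller rises it was 2.64 for EXPA7, 2.20 for RBOHG, 1.60 for PER66 and 1.28 for EXLA1. Among the falls it was -3.65 for AT5G35940, -3.16 for AT3G10020, -2.75 for AT5G62340, -2.46 for JAL33, -2.35 for AT2G43610, -2.32 for AT3G23880, -2.24 for AT5G24490 and -2.22 for AT3G07350. AT3G55920, at -4.76, differed through the meristematic zone.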

How the results depend on the processing

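All 2979 differences kept their sign under every alternative run, an outcome largely fixed in advance. Fits with fewer groups, no filter, no trend or a replicate block leave the difference itself unchanged. Leaving out 1 array cannot reverse groups that do not overlap. The number called was 2528 with 1 added before log2, 3167 with 64 added, 2261 with no filter, 2995 after quantile normalization, 3063 after median centring (41.5% of them higher, against 49.7% in the reported fit) and 2381 with no variance trend. Fitting the 4 arrays alone gave 757 calls (530 higher, 227 lower), and the 6 elongation arrays alone 1263 (763 higher, 500 lower). Leaving out 1 array gave 531 to 4745 calls, 362 to 2121 higher and 169 to 2624 lower; without Col-0 replicate 1, 68.2% were higher. With 1 added, 2 probe sets were lower in the meristematic zone. The test between zones called 118 with 1 added (71 higher, 47 lower), 557 with 64 added (377 higher), 148 with no filter (108 higher, 40 lower), 215 with no trend (45 lower), and 188 lower after median centring; leaving out 1 array gave 86 to 2403 (69 to 1052 higher, 17 to 1351 lower). The cause of these moves was not tested. Values that changed sign when 1 array was left out, none of them called, ranged from -0.1322 to 0.0142 for SAPX (positive without upb1-1 replicate 2), -0.4518 to 0.055 for PRL (positive without upb1-1 replicate 2), -0.1752 to 0.4469 for LDH1 (negative without Col-0 replicate 1), -0.7572 to 0.1981 for IAA29 (positive without upb1-1 replicate 1) and -0.2561 to 0.0008 for IAA20 (positive without Col-0 replicate 2). With a replicate block 3118 probe sets were called, 2917 of them shared; deviations of same-numbered arrays correlated at 0.277 between upb1-1 and Col-0 elongation and at -0.151 to 0.113 between other groups. With 2 replicates a group, and no label that ties a number to a shared day or batch, whether the numbers pair the samples was not settled. Having 2 arrays a group limits the precision of every value.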
